A study of Sus scrofa domesticus with 6 samples.

Results

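PI16-negative fibroblasts of control lung were cells that carried collagen and decorin transcripts but no captured transcript of PI16, which encodes peptidase inhibitor 16 and marks fibroblasts of the sheaths around vessels and airways. They were chosen from 3 control libraries as cells with at least 1000 UMIs (unique molecular identifiers, each standing for 1 captured transcript) and at most 20% of UMIs on mitochondrially encoded genes. Within these, a cell was taken when DCN, COL1A2 and COL3A1 together reached 10 UMIs, PI16 had 0 UMIs and MYH11 and ACTA2 together stayed under 3 UMIs. The rule found 639 cells among the 17225 that passed the first 2 limits, with 58 in control replicate 1, 351 in replicate 2 and 230 in replicate 3. Because measured values chose the cells, the levels of those 6 genes are given as a description.

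The animals were domestic pigs in which 1 lung was transplanted, and cells of dissociated lung were sequenced in droplets. The 3 control libraries held unsorted cells of the right lungs of donors. Grafts had 24 hours of cold ischemia before 8 hours of reperfusion. They gave 1 library sorted for cells without CD45, the common leukocyte antigen (IRI CD45-, for ischemia-reperfusion injury), and 2 libraries of CD45-bearing cells, in which the same rule found 0 cells. The labels name no genetic alteration, and breed, age and sex are not stated there. They speak of 3 pairs of lung specimens and do not tie a library to an animal. Within control lung, p-values rest on how far a difference between 2 groups of cells varied from library to library. In the graft comparison they rest on the spread among the 3 control libraries. Controls held 25802239, 33549585 and 32573142 UMIs in 4957, 6556 and 6365 cells, with 1001 UMIs in the shallowest cell of each.

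Lung fibroblasts build and remodel the extracellular matrix. They secrete fibrillar collagens, proteoglycans that space the collagen fibrils, and the elastin and microfibril proteins that let the lung recoil. Those in the alveolar wall support epithelial cells and are known for genes such as TCF21, ITGA8 and NPNT, whereas those around larger vessels and airways are known for PI16, MFAP5 and CLEC3B. Fibroblasts are also a local source of complement proteins and of chemokines that hold immune cells in tissue.

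The fibroblast label was checked against DCN, COL1A2, LUM and FBLN1. DCN, the proteoglycan decorin, had at least 1 UMI in 96.6%, 100% and 97.8% of the PI16-negative cells of replicates 1, 2 and 3, against 4.18%, 14.3% and 16.6% of non-fibroblast cells, that is cells under 10 collagen UMIs. LUM, the proteoglycan lumican that the rule did not use, was seen in 58.6%, 86.9% and 74.3% of PI16-negative cells and in 0.637%, 2.48% and 2.96% of non-fibroblast cells. FBLN1, the matrix protein fibulin-1, was seen in 65.5%, 92.6% and 83.0% against 2.07%, 4.59% and 5.30%. Median depth was 3726, 2584 and 3110.0 UMIs per PI16-negative cell and 2864, 3087 and 2852 per non-fibroblast cell. Replicate 1 had the lowest share for both unused markers. PTPRC, the gene of CD45, was seen in 3.45%, 7.12% and 8.70% of PI16-negative cells against 54.9%, 55.9% and 53.1% of non-fibroblast cells. The epithelial gene EPCAM was rare in both, in 0%, 0.285% and 0.870% against 1.61%, 2.09% and 2.57%. The endothelial gene PECAM1 separated them less, at 10.3%, 7.98% and 6.52% against 13.7%, 14.0% and 16.5%.

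Of the 6 genes of the rule, DCN, COL1A2 and COL3A1 were far higher than in non-fibroblast cells, while ACTA2 was not separated, at 49.2, 35.1 and 35.3 against 22.9, 30.4 and 42.2 CPM. In the order of replicates 1, 2 and 3, DCN stood at 7185, 12150.0 and 12060.0 CPM (a gene's UMIs relative to all UMIs of the summed class, on the counts-per-million scale) against 10.1, 34.2 and 43.2 CPM in non-fibroblast cells. COL1A2 and COL3A1, chains of collagens I and III, stood at 6224, 9790.0 and 11460.0 and at 9247, 13450.0 and 17400.0 CPM. Near the limits, 19 cells had 10 to 12 collagen UMIs while 41 cells with 7 to 9 UMIs fell just outside, and 25 cells held 2 smooth muscle UMIs while 19 with 3 UMIs fell outside. Most cells were far from these borders: 559 had 0 smooth muscle UMIs, and the median collagen sum was 63.5, 86 and 94 UMIs.

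Against non-fibroblast cells of the same libraries, PI16-negative fibroblasts stood out by matrix and complement genes. Of 2131 genes at 50 CPM or more in the PI16-negative cells of each library, 384 were at least 4-fold higher in each library, or 18.0%. This contrast is the one the rule was built on, so it carries no test and the counts are read as a description. The genes with the highest fold in their lowest library were LUM, COL1A1, C7, CCDC80, SOD3, DPT, OGN, FBLN1, ISLR and CPZ, followed by LOX, PDGFRL, COL6A1, FMOD, PRELP, POSTN, MGP, C4A, C1S and FIBIN. Other genes named from the lists below were chosen after their values were seen.

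**Figure D1:**
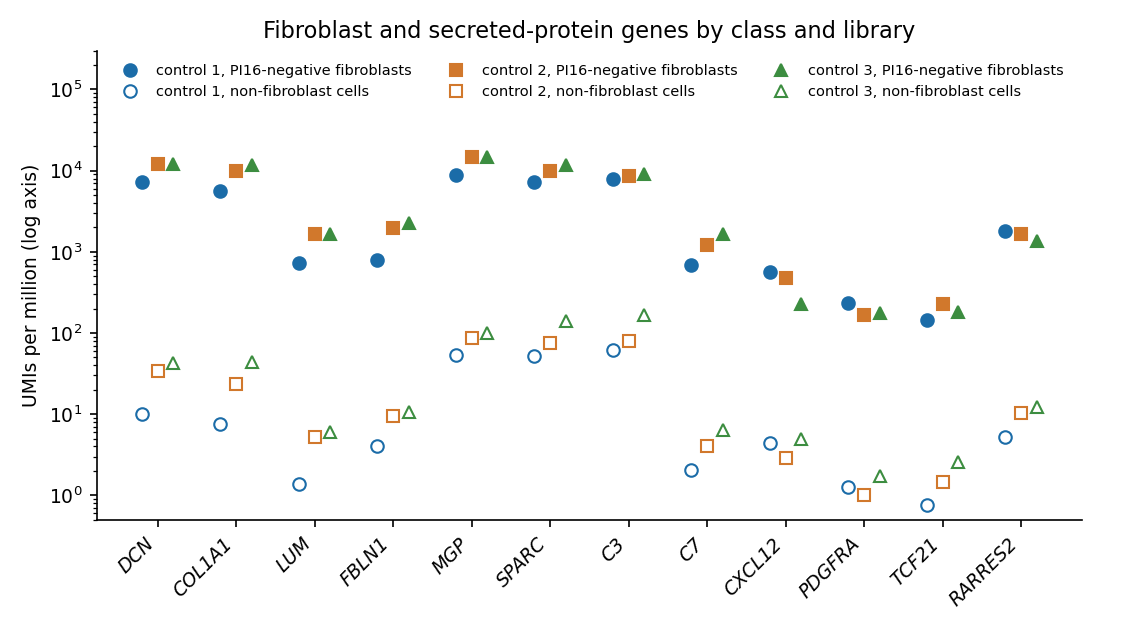
Levels of 12 genes in CPM (log axis) in PI16-negative fibroblasts (filled) and non-fibroblast cells (open) of control replicates 1 (circles), 2 (squares) and 3 (triangles). Each filled point lies above each open point of the same gene, and for LUM the filled points sit at 718, 1665 and 1637 CPM.

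Structural collagens were high throughout. All 11 of the 14 fibrillar and beaded-filament collagens that reached 50 CPM in each library passed the 4-fold mark. COL1A1, the second chain of collagen I and outside the rule, stood at 5630.0, 9872 and 11640.0 CPM against 7.49, 23.7 and 44.1 CPM, with the lowest value in replicate 1 and no overlap between classes. COL6A1, a chain of the beaded filaments around cells, stood at 459, 784 and 844 CPM and COL14A1, which sits on fibril surfaces, at 377, 936 and 1234 CPM. Among 17 basement membrane genes, 8 of the 9 that reached 50 CPM passed; COL4A1 was the exception, at 348, 136 and 234 CPM against 29.8, 29.8 and 61.5 CPM, since its fold in replicate 3 was 3.80.

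Proteoglycans and elastic fibre genes followed. Of 12 small leucine-rich proteoglycans, 8 of the 9 at 50 CPM passed, and PODN did not, at 148, 147 and 117 CPM against 146, 139.7 and 164 CPM. LUM was 272- to 514-fold and OGN, osteoglycin, 199- to 359-fold above non-fibroblast cells across the libraries. In the list of 17 elastic fibre and microfibril genes, 10 of 11 passed, with EMILIN2 at a fold of 0.882 to 1.37 as the exception. Elastin itself, ELN, was low at 45.9, 54.6 and 65.0 CPM, while MFAP5, a microfibril protein, reached 203, 544 and 361 CPM.

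Other matrix proteins were also abundant. MGP, an inhibitor of calcification, stood at 8926, 14570.0 and 14890.0 CPM and SPARC, a collagen-binding protein, at 7191, 10020.0 and 11700.0 CPM, against 54.1, 87.5 and 98.9 and 51.9, 75.0 and 139.5 CPM in non-fibroblast cells. FN1, fibronectin, was highest in replicate 1, with 4296, 1249 and 961 CPM. POSTN, periostin, was likewise highest in replicate 1, at 892, 211 and 335 CPM. A group of 54 cells, cluster 1 below, held 768 of its 837 UMIs in PI16-negative cells. Enzymes that mature collagen were high too: LOX, which cross-links it, stood at 344, 471 and 577 CPM and PCOLCE, which helps to trim procollagen, at 544, 1068 and 908 CPM. Of 23 matrix enzymes and inhibitors, 14 of the 17 at 50 CPM passed; TIMP1, an inhibitor of matrix proteases, did not, at 416, 196 and 304 against 124, 216 and 154 CPM.

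Complement genes formed the second block. All 11 of the 14 listed complement genes with any UMIs reached 50 CPM and passed the 4-fold mark. C3, the central component, stood at 7998, 8616 and 8980.0 CPM against 61.5, 79.1 and 169 CPM, within the range of COL1A2. C1R and C1S, the proteases of the first component, stood at 3286, 3445 and 3162 and 3033, 4105 and 3421 CPM, and C7, a part of the membrane attack complex, at 682, 1229 and 1664 CPM. SERPING1, which inhibits C1R and C1S, stood at 3118, 3728 and 3099 CPM. Over the 3 libraries C3 averaged 8531 ± 496 CPM (SD, n = 3), a narrower spread than the 9048 ± 3089 CPM of COL1A1.

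Fewer signalling genes reached 50 CPM. Of 28 genes in a list of chemokines, cytokines and related genes 8 did, and 2 of these passed. CXCL12, which retains CXCR4-bearing cells, stood at 558, 473 and 230.2 CPM against 4.36, 2.90 and 4.94 CPM. The other was the interleukin-1 receptor gene IL1R1, at 115, 95.9 and 80.9 CPM. CCL2, a chemokine for monocytes, stood at 666, 1069 and 465 CPM against 132, 183 and 216 CPM and missed the mark in replicate 3, at 2.15-fold. Among receptors, PDGFRA, the platelet-derived growth factor receptor typical of fibroblasts, stood at 233, 165 and 178 CPM against 1.27, 1.00 and 1.73 CPM. Of 30 growth factor and receptor genes 8 of the 9 at 50 CPM passed, and of 33 WNT, BMP and hedgehog genes 5 of the 7 at 50 CPM passed, led by FSTL1, a secreted BMP-binding protein, at 564, 774 and 1033 CPM. RARRES2, which encodes the chemoattractant chemerin, stood at 1820.0, 1644 and 1359 CPM. None of the 18 immediate-early genes and none of the 18 heat shock and chaperone genes at 50 CPM passed.

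Genes known from alveolar fibroblasts were present at moderate levels. TCF21, a transcription factor of alveolar fibroblasts, stood at 144, 229 and 182 CPM against 0.762, 1.47 and 2.57 CPM, and was seen in 34.5%, 43.0% and 37.0% of PI16-negative cells. NPNT, a basement membrane ligand, stood at 45.9, 24.2 and 104 CPM and ITGA8, its integrin receptor chain, at 45.9, 40.5 and 54.7 CPM. Of the 24 genes in that list 7 reached 50 CPM and 4 passed. Adventitial genes, known from the sheaths of vessels and airways, stood out more: of 22 listed, 11 reached 50 CPM and 10 passed. The median of the lowest fold, over genes at 50 CPM, was 51.0 for the adventitial and 9.16 for the alveolar list. None of 13 lipid-handling fibroblast genes passed, and only 2 reached 50 CPM.

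The 3 libraries held different shares of these cells. They made up 1.24% of the cells passing the limits in replicate 1 (95% Clopper-Pearson interval 0.940% to 1.60%), 5.52% in replicate 2 (4.98% to 6.11%) and 3.72% in replicate 3 (3.26% to 4.22%). Intervals cover counting error only. As a share of both fibroblast classes, PI16-negative and PI16-positive, they were 22.7% of 256 cells, 32.6% of 1077 cells and 16.7% of 1376 cells. The order of the libraries therefore depended on the denominator: replicate 1 was lowest among all cells and replicate 3 among fibroblasts.

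A cell can lack a PI16 UMI because few of its transcripts were captured, and the share without PI16 moved with depth. In cells of 1000 to under 2000 UMIs it was 28.8%, 49.1% and 28.6% in replicates 1, 2 and 3, and in cells of 4000 to under 8000 UMIs 18.5%, 23.7% and 13.5%. At 8000 UMIs or more it was 19.8% in replicate 2 and 9.82% in replicate 3, but 29.7% of 37 cells in replicate 1. A list of 10 mesothelial genes holds UPK3B and WT1 and also KRT8, KRT18 and KRT19, which epithelial cells express too. When cells with 2 or more UMIs of that list were left out, a step added after the data were seen, that last share was 1 of 26 cells, 3.85%, and the other libraries gave 14.4% and 8.23%. PI16-positive cells held a median of 6.5, 6 and 10 PI16 UMIs, and 14.1%, 13.6% and 7.24% of them held 1. Cells without PI16 were therefore a larger share of shallow than of deep cells in replicates 2 and 3, and in all 3 libraries without the mesothelial-list cells.

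**Figure D2:**
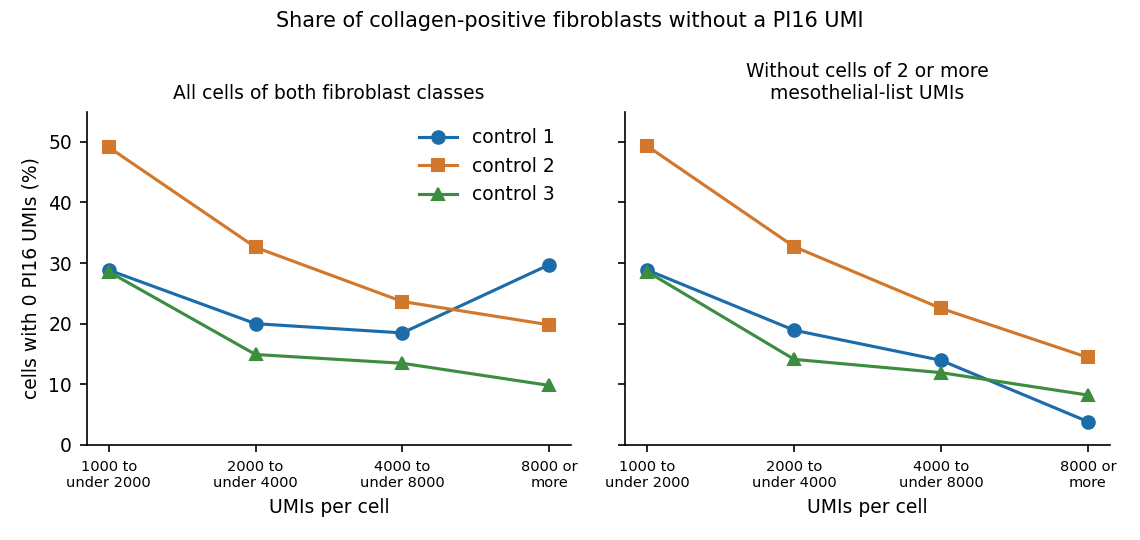
Share of fibroblasts of both classes with 0 PI16 UMIs (vertical axis, percent) by UMIs per cell in control replicates 1 to 3; the left panel holds all cells and the right panel leaves out cells with 2 or more UMIs of the mesothelial list. The line of replicate 1 turns up to 29.7% at 8000 UMIs or more on the left and ends at 3.85% on the right.

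Clustering of the 639 cells on their own gave 5 groups, which are named here by number and leading genes. Every gene of these cells entered the clustering, so the values are a description. Clusters 2 and 3 held 302 and 230 cells and together carried the matrix profile: LUM stood at 2031 and 2419 CPM and DCN at 14487 and 17482 CPM. Cluster 2 was led by APOD, CCL19, ATP8A2, CHI3L1, ADORA2A, NOVA1, ZNF664 and TNFSF15. CHI3L1, a secreted chitinase-like protein, was seen in 218 of its cells at 3249 CPM, whereas 1 cell gave 83.1% of the APOD UMIs. The top cell also gave 69.5% of the ZNF664 and 56.5% of the ATP8A2 UMIs. For the other leading genes that share was 4.10% to 20%. CCL19, a chemokine for CCR7-bearing lymphocytes and dendritic cells, was seen in 75 cells at 379.7 CPM, against 57.2 CPM in cluster 3.

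Cluster 3 was the shallow group. Its median was 1747 UMIs, 0.556 of the median of the library a cell came from, against 3313 UMIs in cluster 2. Its leading genes were HBB, LDAH, GANC, LMTK2, KITLG, ENOX1, GAS7 and FARP1. HBB, a haemoglobin chain of red cells, was seen in 39 of the 230 cells, with 44.9% of its UMIs in 1 cell. The top cell of each gene gave 86.1% of the LMTK2, 80.6% of the GANC, 78.2% of the GAS7 and 43.1% of the LDAH UMIs. For KITLG, FARP1 and ENOX1 that share was 7.41% to 14.3%. COL3A1 stood at 21940.2 CPM in this cluster, the highest of the 5.

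Cluster 1, with 54 cells, carried less of the fibroblast matrix profile. It was led by CST6, KRT8, DEFB1, ADIRF, CCDC3, KRT19, UPK1B and PRODH2, and WT1 and UPK3B, transcription factor and membrane protein genes known from the mesothelium that lines the lung surface, stood at 303 and 113 CPM. UPK3B was at 0 CPM in each other cluster. Of the leading genes, PRODH2 was seen in 5 cells, with 75.6% of its UMIs in 1 cell. LUM stood at 94.9 CPM and FBLN1 at 142 CPM, far under the 2517 CPM of cluster 2, and EPCAM was at 0. POSTN stood at 1736 CPM, against 38.9, 24.8 and 35.1 CPM in clusters 2, 3 and 4. The cells were deep, with a median of 4924 UMIs, and carried a median of 29 collagen UMIs. They made up 36.2% of the PI16-negative cells of replicate 1, 3.99% of replicate 2 and 8.26% of replicate 3, so the library with the fewest cells held the largest share.

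Clusters 4 and 5 were small. The 45 cells of cluster 4 were led by CXCL11, CD40LG, HNF4A, IGHM, PLEK, DERL3, PVRIG and P2RY10, a set with many lymphocyte genes. Single cells gave several of these values: 1 cell held all CXCL11 UMIs, 99.2% of the IGHM UMIs and 96.4% of the HNF4A UMIs, in each case counted for that gene alone. CD3E, a T cell receptor chain, stood at 169.8 CPM and PTPRC at 357 CPM, beside LUM at 492 CPM. Cluster 5 held 8 cells, 6 of replicate 2 and 2 of replicate 3, led by COL2A1, MATN1, MIA, ECRG4, HAPLN1, CYTL1, SCRG1 and COL11A2. COL2A1, the collagen of cartilage, was seen in 4 of them and MATN1 in 1, and ACAN, the cartilage proteoglycan aggrecan, stood at 340.2 CPM. Whether clusters 1, 4 and 5 hold doublets was not tested.

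**Figure D3:**
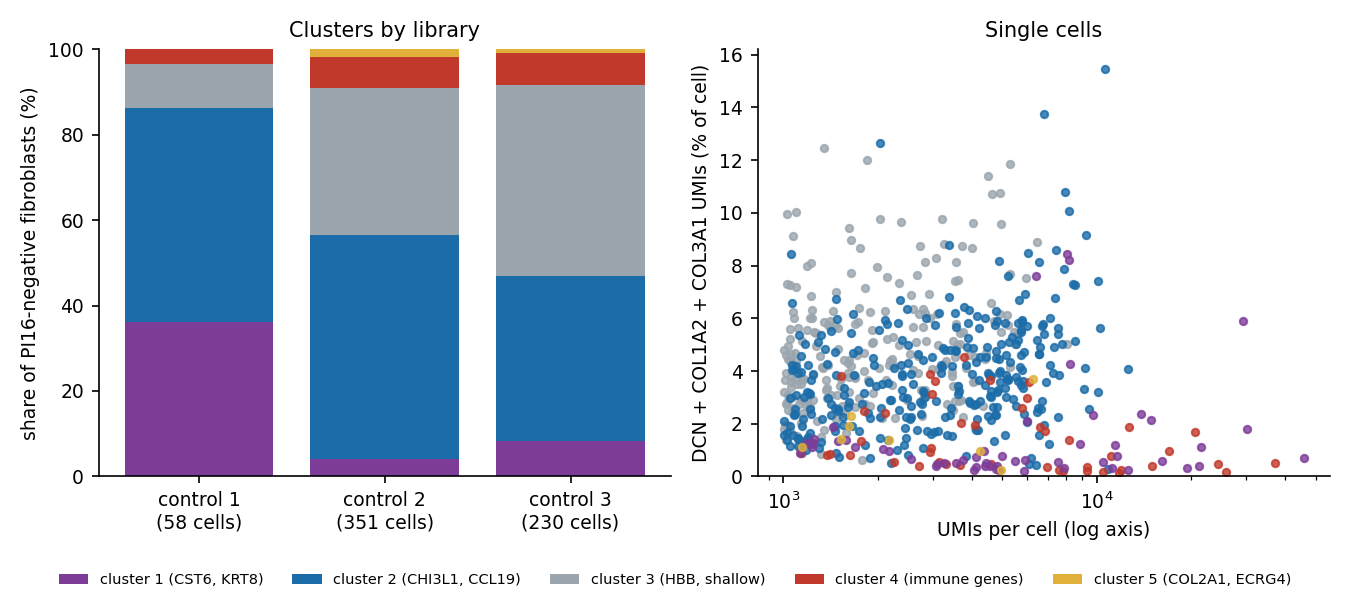
Left, share of the PI16-negative cells of each control library in clusters 1 to 5 (percent). Right, each cell by its UMIs (log axis) and the percent of them on DCN, COL1A2 and COL3A1, coloured by cluster; cluster 1 takes 36.2% of replicate 1 and 3.99% of replicate 2.

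The closest cells in the same libraries were PI16-positive fibroblasts, chosen by the same rule with 1 or more PI16 UMIs: 198, 726 and 1146 cells in replicates 1, 2 and 3. PI16-negative cells were lower in genes of the elastic fibre and of the vessel and airway sheath, and higher in keratins and other mesothelium-associated genes. UMIs were summed per library and class and tested with edgeR, with the library as a block. Of 9343 genes tested outside the rule, 98 were higher in PI16-negative cells, or 1.05%, and 76 lower, or 0.813%, at an adjusted p under 0.05. DESeq2 with its size factors gave 83 higher and 42 lower, which moved the higher share from 56.3% to 66.4%. PI16-positive cells were deeper, with medians of 4040, 4043 and 3992 UMIs. They also held a median of 145.5, 172 and 189 collagen UMIs, against 63.5, 86 and 94 in PI16-negative cells. With every cell thinned to 1000 UMIs 18 genes were higher and 30 lower. The counts depended on which libraries entered: 298 genes were called without replicate 1, 103 without replicate 2 and 65 without replicate 3.

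Among adventitial genes, 9 of 17 tested were lower and 0 higher. The median log2 change was -1.05 over the list against -0.0028 over all genes. PI16 marks the same sheath fibroblasts, so splitting the classes by its UMIs favours lower values of genes that go with it. How far the split sets the changes here and in the elastic fibre list below was not tested. CLEC3B, tetranectin, stood at 42.6, 206 and 90.1 CPM in PI16-negative cells and 337, 1556 and 709.5 CPM in PI16-positive cells of replicates 1, 2 and 3. It was lower in each library, and its log2 change was -3.01 ± 0.19 (SE; adjusted p = 9.7e-07). MFAP5 stood at 203, 544 and 361 against 1322, 2703 and 1719 CPM, with no overlap between the classes and a log2 change of -2.48 ± 0.19 (adjusted p = 7.05e-06). IGFBP6, which binds insulin-like growth factor II, and PCOLCE2, a procollagen C-proteinase enhancer, fell with log2 changes of -1.72 ± 0.23 and -1.74 ± 0.18. DPT and OGN, in the same list, had log2 changes of -0.80 ± 0.27 and -0.49 ± 0.21 with adjusted p of 0.287 and 0.463. The list gave 12, 6 and 4 lower genes when replicates 1, 2 and 3 were left out in turn, and 3 without the library block.

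Elastic fibre and microfibril genes behaved alike: 8 of 17 were lower and 0 higher, with a median log2 change of -0.91. FBLN2, fibulin-2, stood at 42.6, 43.7 and 57.0 CPM against 181, 255 and 263 CPM, a log2 change of -2.38 ± 0.20 (adjusted p = 1.35e-05). FBN1, the main microfibril protein fibrillin-1, stood at 39.4, 104 and 152 against 192, 218 and 308 CPM and fell by 1.36 on the log2 scale. ELN stood at 45.9, 54.6 and 65.0 against 146, 90.2 and 181 CPM, with a log2 change of -1.29 ± 0.22 that was not called without replicate 3 (adjusted p = 0.232). The list gave 10, 6 and 3 lower genes without replicates 1, 2 and 3 in turn and 4 without the block. FBLN1 was not called, at -0.53 ± 0.43 (adjusted p = 0.835), and neither was LUM, at -0.80 ± 0.22 (adjusted p = 0.112).

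Of the remaining genes with the largest falls, PROCR, the endothelial protein C receptor gene, had 3.28, 9.36 and 2.28 against 56.8, 73.5 and 43.6 CPM and a log2 change of -3.44 ± 0.34. INMT, an N-methyltransferase gene, had a log2 change of -1.57 ± 0.22, KCTD12 of -1.61 ± 0.21 and ANGPTL1 of -1.65 ± 0.28. ANGPTL1 was not called without replicate 2 (adjusted p = 0.246). WNT2B, a WNT ligand, had 1 UMI in all PI16-negative cells against 123 in PI16-positive cells, a ratio of 30.9 with a counting interval of 5.44 to 1229.

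Genes higher in PI16-negative cells were led by those of cluster 1. CST6, cystatin E/M, stood at 456, 118 and 298 CPM against 2.14, 0.577 and 0.924 CPM, with a log2 change of 7.90 ± 0.29 (adjusted p = 3.1e-09). ADIRF, UPK1B, KRT8, KRT19, KRT7, DEFB1, CDH1, MT1X and LCN2 completed the 10 largest, with log2 changes from 3.36 to 7.94. KRT8 and LCN2 were not called without replicate 1 (adjusted p = 0.0528 and 0.496), and CDH1 was not called without replicate 3 (adjusted p = 0.173). All 4 tested members of the mesothelial list were higher, with a median log2 change of 5.79, and UPK3B had 0 UMIs in PI16-positive cells and 32.8, 12.5 and 27.4 CPM in PI16-negative cells. The list's summed level was 721, 228 and 303 CPM in PI16-negative and 10.7, 15.6 and 8.50 CPM in PI16-positive cells, with CALB2 at 0 in cluster 1. Cells with 2 or more UMIs of it were 27.6%, 3.70% and 6.96% of PI16-negative and 1.01%, 0.826% and 0.436% of PI16-positive cells.

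Leaving those cells out, an alternative chosen after the data were seen, kept 594 PI16-negative and 2057 PI16-positive cells and gave 49 higher and 80 lower genes. Of the 76 lower genes 74 could still be tested and 53 remained lower, and of the 98 higher genes 47 could be tested and 16 remained higher. POSTN, which stood at 892, 211 and 335 against 99.6, 68.3 and 42.1 CPM with a log2 change of 2.50 ± 0.28 in all cells, turned to -0.64 (adjusted p = 0.852), and it was not called without replicate 1 either (adjusted p = 0.254). MFAP5 kept a log2 change of -2.05, CLEC3B of -2.66 and FBLN2 of -2.60, and both lists gave 9 lower genes of 17. LUM moved to -0.31 and FBLN1 to -0.03, neither called.

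**Figure D4:**
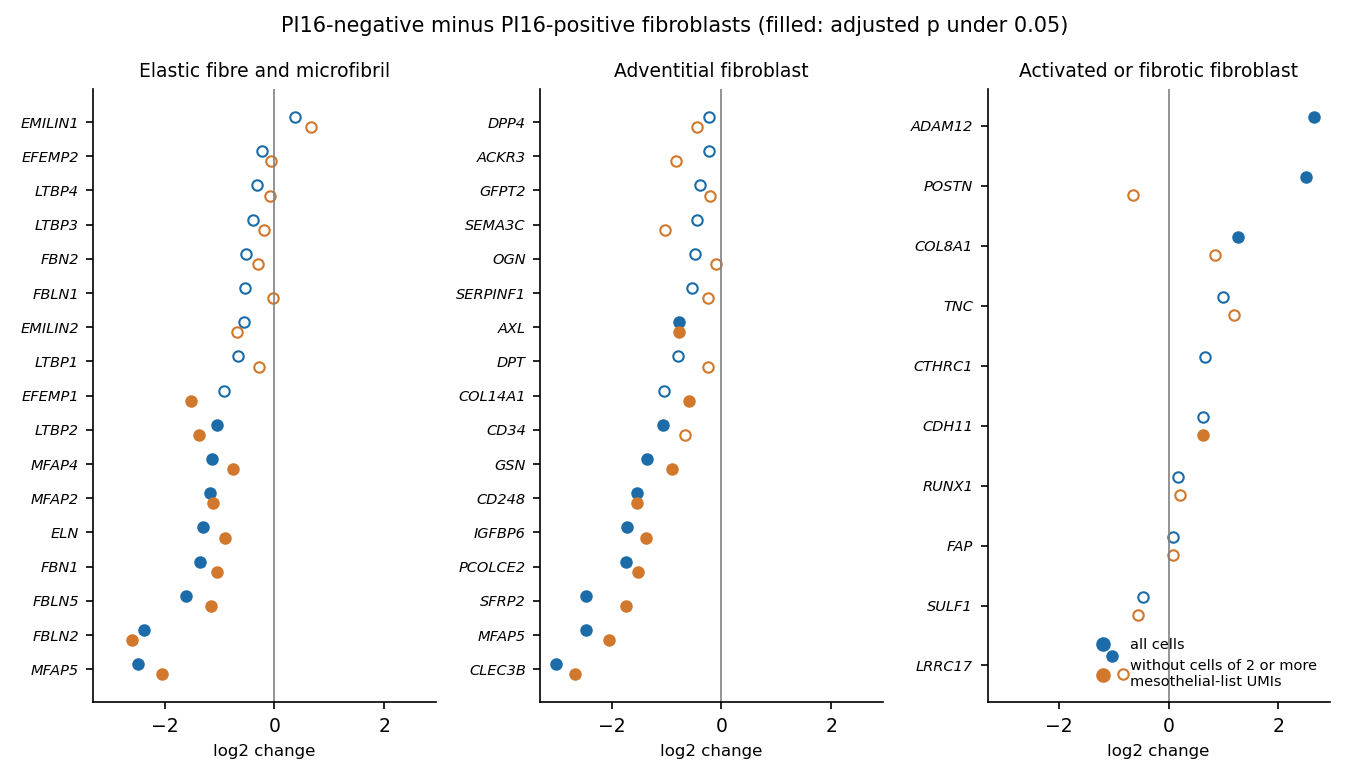
Log2 change of PI16-negative minus PI16-positive fibroblasts (horizontal axis) for tested members of 3 gene lists, with all cells (blue) and without cells of 2 or more mesothelial-list UMIs (orange); filled points have an adjusted p under 0.05, and genes without an orange point were not tested there. MFAP5 and CLEC3B stay on the left in both, while POSTN crosses from 2.50 ± 0.28 to -0.64.

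A small set was higher with and without those cells. NPNT stood at 45.9, 24.2 and 104 CPM in PI16-negative and 11.8, 8.65 and 20.9 CPM in PI16-positive cells, and its lowest PI16-negative value lay above each PI16-positive one. Its log2 change was 1.92 ± 0.28 in all cells and 2.05 without the mesothelial-list cells, with adjusted p of 0.00218 and 0.000168. A2M, the protease inhibitor alpha-2-macroglobulin, stood at 515, 204 and 548 against 191, 104 and 149 CPM, with log2 changes of 1.36 ± 0.20 and 1.84. COL6A5, a collagen VI chain, gave 1.50 ± 0.24 and 1.93. All 3 rested on replicate 3: without it the adjusted p was 0.319 for NPNT, 0.159 for A2M and 0.247 for COL6A5, and COL6A5 was not called without replicate 2 either (0.113). TCF21, ITGA8 and PDGFRA were not called, at -0.21 ± 0.19, 0.63 ± 0.24 and 0.25 ± 0.17.

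Several groups were not called to differ between the 2 fibroblast classes. For the 11 complement genes tested 0 passed in either direction, with a median log2 change of 0.02, and C3 stood at 8000.0, 8617 and 8983 against 9203, 8085 and 6720.0 CPM. Without the mesothelial-list cells 1 of the 11, CLU, was called, with a log2 change of 0.65. Nor did any of 19 immediate-early genes or 18 heat shock and chaperone genes pass. Of 18 tested genes in the list of chemokines, cytokines and related genes, CXCL2 was higher at 1.09 ± 0.19. CXCL10 and the prostaglandin synthase gene PTGES were lower at -0.92 ± 0.21 and -1.36 ± 0.24. CXCL2 was not called without replicates 2 or 3 and CXCL10 was not called without replicates 1 or 3, with adjusted p from 0.173 to 0.791, while PTGES was not called without replicate 3 (adjusted p = 0.297).

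A further comparison set them against cells with 3 or more UMIs of the smooth muscle genes MYH11 and ACTA2 and 0 PI16 UMIs, 54, 85 and 172 cells. Those of them under 10 collagen UMIs also counted among the non-fibroblast cells above. PI16-negative fibroblasts were higher in complement genes and lower in pericyte genes, directions that the choice of cells may favour. The limit of 10 collagen UMIs applied to the PI16-negative cells alone, and the smooth muscle gene-positive cells held a median of 7.5, 9 and 14 collagen UMIs against 63.5, 86 and 94. The choice of cells therefore favours higher collagen and other matrix genes in PI16-negative cells, and those are given as a description. Complement genes, also higher than in cells under 10 collagen UMIs, may be favoured in the same way. The smooth muscle limit may favour lower pericyte genes. How far the choice sets the values of these groups was not tested. In the same block design 7097 genes were tested, of which 376 were higher, or 5.30%, and 309 lower, or 4.35%. Without replicate 2 the calls fell to 77 higher and 60 lower. Smooth muscle genes other than the 2 used were lower in 10 of 10 cases, a direction that the choice of these cells by MYH11 and ACTA2 favours.

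All 11 complement genes were higher, with a median log2 change of 2.26 against -0.0015 over all genes. C3 stood at 8000.0, 8617 and 8983 CPM in PI16-negative cells and 1819, 2213 and 1995 CPM in the smooth muscle gene-positive cells, with little spread within either class. Its log2 change was 2.17 ± 0.13 (adjusted p = 1.56e-05). CFB, factor B of the alternative pathway, showed the largest rise of the list, 3.23 ± 0.31, and CFD, factor D, rose by 2.43 ± 0.18. The count was 10 without replicate 2 and 9 without the mesothelial-list cells, where CFB and C4A were not called (adjusted p = 0.104 and 0.15).

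Matrix groups, which the choice of cells favours, had fewer calls without replicate 2. Of 14 fibrillar collagens 7 were higher and 0 lower, and COL1A1 stood at 5632, 9874 and 11650.0 against 1384, 2438 and 3077 CPM, a log2 change of 2.07 ± 0.13. Adventitial genes were higher in 10 of 16 cases and proteoglycans in 5 of 9. Without replicate 2 these counts were 1, 3 and 1. DPT, dermatopontin, had a log2 change of 2.62 ± 0.17. POSTN had a log2 change of 1.58 ± 0.24 in all cells and -1.98 without the mesothelial-list cells (adjusted p = 0.00402), so its direction turned.

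Basement membrane genes were mixed: of 14 tested 1 was higher and 5 lower, with a median log2 change of 0.04. NID1, nidogen-1, was the higher one, at 1.25 ± 0.23. COL4A1, a chain of the basement membrane collagen, stood at 348, 136 and 234 CPM in PI16-negative cells against 1413, 820.4 and 1290.0 CPM, a log2 change of -2.28 ± 0.18. NPNT and A2M, which were higher than in PI16-positive fibroblasts, were lower than in this class, at 45.9, 24.2 and 104 against 219, 226 and 339 CPM for NPNT and 515, 204 and 548 against 2591, 1798 and 2333 CPM for A2M. Their log2 changes were -2.26 ± 0.30 and -2.44 ± 0.21 (adjusted p = 0.000857 and 7.33e-05). Of 11 pericyte genes 9 were lower, with a median log2 change of -3.89, such as NOTCH3, a receptor of vessel wall cells, at 16.4, 3.12 and 3.42 against 108, 114 and 70.5 CPM, and POSTN, also in that list, was the 1 higher. Of 18 WNT, BMP and hedgehog genes 8 were higher and 6 lower: the BMP antagonist GREM1 fell with -4.30 ± 0.80 and was not called without replicate 2 (adjusted p = 0.13), and BMPER, a BMP-binding protein, fell with -2.20 ± 0.32.

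In the graft the same rule found 68 cells in the IRI CD45- library, with a median of 17.5 collagen UMIs against 63.5, 86 and 94 in the controls. They were higher in cytokine and chemokine genes and lower in proteoglycan and complement genes than PI16-negative fibroblasts of control lung. With 1 graft library, assumed to vary like the controls, 8746 genes listed in all 4 libraries were tested, and 798 were higher in the graft, or 9.12%, and 742 lower, or 8.48%. The median log2 change of all genes was -0.42, so single changes are read relative to it. DESeq2 gave 464 higher and 201 lower, moving the higher share from 51.8% to 69.8%. Sort, injury and the set of genes counted cannot be told apart here: no control was sorted, and the graft library lists 0 of the 13 mitochondrial genes, so the mitochondrial limit could not act there. The 10 largest falls all had 0 graft UMIs, led by COL19A1 and CTNNA3, at least 46.5- and 28.1-fold lower, and these were also under 1 CPM in graft non-fibroblast cells (0.768 and 0.609 CPM) while control non-fibroblast cells held 923, 884 and 712 and 521, 397 and 512 CPM.

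Epithelial transcripts led the rises and were spread over the whole graft library. SFTPC, the surfactant protein C gene of alveolar type II cells, stood at 33880.0 CPM in the graft cells of the rule, 0, 7.51 and 2.45 CPM in the controls and 76180.0 CPM in graft non-fibroblast cells. All 68 cells held 2 or more UMIs of the epithelial list, whose summed level was 40483 CPM, against 649, 243 and 346 CPM in the controls, and EPCAM stood at 1009 CPM. SFTPD, SCGB1A1, IYD, SFTPB, RETN, ELF3, CSF3, SFTPA1 and SFTA2 made up the rest of the 10 largest rises. Except for RETN, each of these was higher still in graft non-fibroblast cells, from 245 CPM for SFTA2 to 13440.0 CPM for SCGB1A1, as was EPCAM at 2365 CPM. RETN had 70.1 CPM there against 213 CPM. The part of this RNA in the other changes was not tested, so the level in graft non-fibroblast cells is given beside the genes described below as higher.

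In the list of chemokines, cytokines and related genes, 10 of 19 tested were higher in the graft and 2 lower. Among the higher ones were the receptor genes IL1R1 and OSMR and the prostaglandin synthase gene PTGES. IL1R1 stood at 541 CPM in the graft cells and 216 CPM in graft non-fibroblast cells, and OSMR at 177 and 124 CPM. PTGES stood at 260 CPM in the graft cells, below the 441 CPM of graft non-fibroblast cells. LIF, an interleukin-6 family cytokine, stood at 192 CPM in the graft cells and 7.15, 0.834 and 2.45 CPM in the controls, with 17.4 CPM in graft non-fibroblast cells, and its log2 change was 6.40 ± 0.62 (adjusted p = 8.09e-05). CSF1, which sustains macrophages, stood at 411 against 46.5, 40.0 and 52.8 CPM, with 141 CPM in graft non-fibroblast cells and a log2 change of 3.28 ± 0.32. In both cases the graft value lay above that of graft non-fibroblast cells. The 97 PI16-positive fibroblasts of that library were not compared.

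IL6, CCL2, CXCL2 and CCL19 are named after their values were seen. IL6, interleukin-6, stood at 2315 CPM against 50.05, 26.7 and 9.81 CPM in the controls and 26.6 CPM in graft non-fibroblast cells. It was seen in 29 of the 68 graft cells, with 30.1% of its UMIs in 1 cell, and its log2 change was 6.63 ± 0.56 (adjusted p = 0.000672). CCL2 stood at 12430.0 against 726, 1143 and 500.5 CPM and was seen in 65 cells, but graft non-fibroblast cells also held 4228 CPM. Without control replicate 1 CCL2 was not called (adjusted p = 0.084), and CCL19 was not called either (0.221). CCL19, at 1150.0 against 225, 292 and 90.8 CPM, came from 9 of the graft cells, with 7.92 CPM in graft non-fibroblast cells. CXCL2 was at 5607 CPM, close to the 4391 CPM of graft non-fibroblast cells. CXCL12 went the other way, from 608, 506 and 248 CPM in the controls to 26.0 CPM.

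Matrix genes moved in both directions. Of 19 other matrix and matricellular genes tested 4 were higher and 4 lower, with a median log2 change of -0.46, near the -0.42 of all genes. TNC, tenascin C, stood at 713 CPM against 14.3, 29.2 and 27.0 CPM in the controls and 18.1 CPM in graft non-fibroblast cells, a log2 change of 4.92 ± 0.36 (adjusted p = 1.72e-05). THBS1, thrombospondin-1, stood at 4921 against 689.9, 919 and 868 CPM, with 289 CPM in graft non-fibroblast cells. The other two higher genes were CCN1 and THBS2, with log2 changes of 1.92 ± 0.33 and 1.27 ± 0.34, beside 815 and 20.9 CPM in graft non-fibroblast cells. SPON1, MATN2, MGP and SPARC were the lower ones, with log2 changes of -4.66 ± 0.90, -2.77 ± 0.52, -2.67 ± 0.38 and -1.40 ± 0.32. From other lists, TIMP1 stood at 3001 against 454, 209 and 328 CPM, with 343 CPM in graft non-fibroblast cells. GFPT2, an enzyme of hexosamine synthesis, stood at 442 against 104, 119 and 134 CPM, with 7.09 CPM in graft non-fibroblast cells. The graft values of TNC, THBS1, TIMP1 and GFPT2 lay above all 3 control values. With 1 graft library this is a description, and the share of all genes doing so is not given here.

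Proteoglycan and complement genes were lower. Of 9 proteoglycan genes 7 were lower and 0 higher, and LUM stood at 93.6 CPM against 783, 1781 and 1762 CPM, a log2 change of -3.83 ± 0.70 (adjusted p = 0.0138). OGN stood at 114 against 629, 1046 and 1196 CPM. Of 11 complement genes 7 were lower and 0 higher, with C3 at 3495 against 8719, 9214 and 9665 CPM and a log2 change of -1.26 ± 0.24 (adjusted p = 0.00594), and C1R, at -0.61 ± 0.25, was not called. COL1A1 fell with -2.10 ± 0.47, more than the shift of all genes. Of 13 fibrillar and beaded-filament collagens tested it was the only 1 called, and 12 were not, with a median log2 change of -1.37. With DESeq2 3 of them were lower. Relative to all UMIs, DCN, COL1A2 and COL3A1, which the rule used, stood at 2244, 1044 and 5054 CPM in the graft cells. These too were under the control values, which for DCN were 7185, 12146 and 12057 CPM on the same scale. How far epithelial RNA in the graft cells lowered the genes of this paragraph was not tested.

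**Figure D5:**
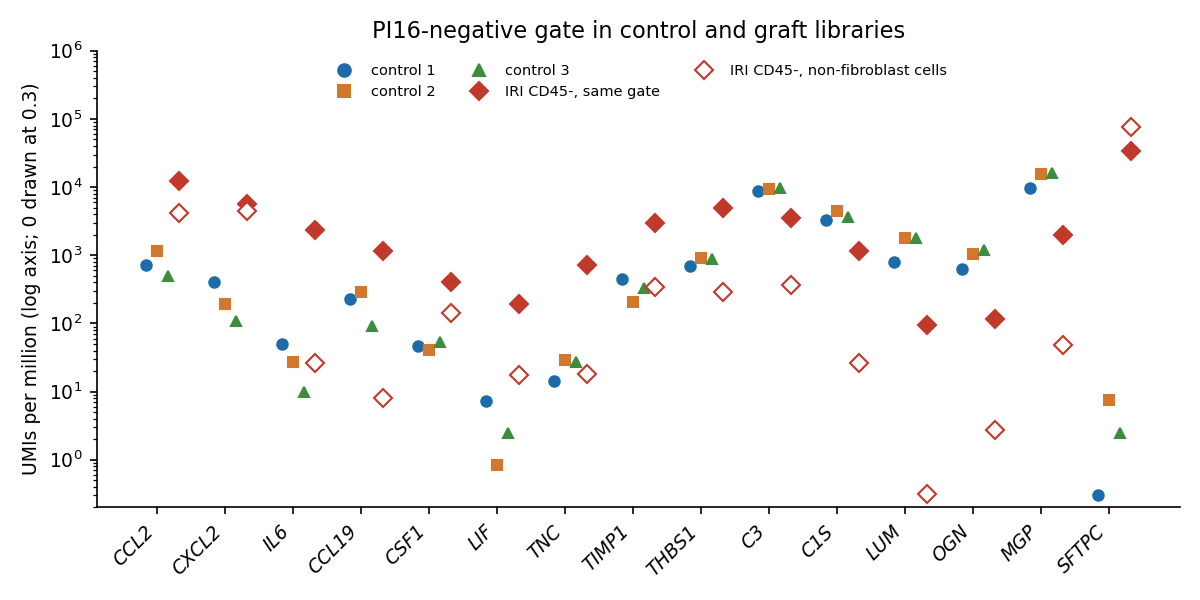
Levels of 15 genes in CPM (log axis) in cells passing the PI16-negative rule in control replicates 1 to 3 and in the IRI CD45- library (filled diamonds), with graft non-fibroblast cells as open diamonds. IL6, LIF and TNC lie above both the controls and the open diamonds, whereas SFTPC is higher in the open diamond, at 76180.0 CPM.

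On the pig assembly Sscrofa11.1, as the RefSeq table gives it, PI16 spans chromosome 7 from 32600952 to 32613505. DCN (chromosome 5, 91678601 to 91713925), LUM (91748871 to 91756381) and KERA (91794317 to 91802362), which encode 3 small leucine-rich proteoglycans, follow each other there. KERA, keratocan, was lower in PI16-negative than in PI16-positive fibroblasts, at 6.56, 7.80 and 5.70 against 30.0, 26.2 and 15.9 CPM and a log2 change of -1.79 ± 0.39, and was not called without replicate 2 or 3 (adjusted p = 0.277 and 0.207). MFAP5 lies at 62742520 to 62757522 on chromosome 5 and CLEC3B at 28219241 to 28229113 on chromosome 13.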

How the data were processed

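Droplet libraries were made on the DNBelab C4 platform, per the labels' protocols. The deposited matrices hold whole UMI counts per gene and cell, not normalised, and were written with PISA, per the file headers. The submitters' processing notes name the Sscrofa11.1 build, Seurat 5.5.3 and R 4.2.2, and neither aligner nor annotation is given in the sources used here. Libraries held 19098567 to 40647380 UMIs, which sets the counting precision of each level. Cell names are renumbered and restart in each library, so the 2995 names that control replicates 1 and 2 share carry no information on shared cells. No doublet caller was run.

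Cells were chosen by the stated limits, and their counts were summed per library and class. CPM is relative to all UMIs of the class, and in the graft comparison to those of genes listed in all 4 libraries. Tests used edgeR 4.0.16 (quasi-likelihood, TMM, filterByExpr, robust) with Benjamini-Hochberg adjustment over all genes at 0.05, leaving out the 6 genes of the rule. Changes are log2 values ± SE. Classes compared within control lung come from the same libraries, so the library was a block, and the graft comparison had none. Clusters came from scanpy 1.11.5. On simulated data the test found 54%, 25% and 2% of 2-fold changes and 87%, 83% and 26% of 4-fold changes in the comparisons with PI16-positive cells, with smooth muscle gene-positive cells and with the graft.

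Named genes were the 20 with the largest lowest fold over non-fibroblast cells, the 10 largest called changes in each direction at 50 CPM or more, up to 4 per list with the smallest p, the genes of the rule with LUM and FBLN1, and the 8 leading genes of each cluster. The members and lists were chosen with earlier results of these data known. Alternatives were DESeq2 1.42.0, no filter on low counts, no block, each control left out, cells thinned to 1000 UMIs, cells with other-type markers left out, a PI16-positive class of 2 or more UMIs and other limits. Leaving out mesothelial-list cells was added after seeing the data.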

Additional observations from a re-analysis of the deposited data

How the results depend on the processing

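With a minimum of 20 CPM in place of 50 CPM, 671 genes were at least 4-fold above non-fibroblast cells. Against PI16-positive fibroblasts, 411 genes were called with no filter on low counts, 48 with cells thinned to 1000 UMIs, and 65 to 298 when a control library was left out. Without the replicate block, which removes the pairing of classes within a library, 79 were called. Against smooth muscle gene-positive cells the calls were 399 with DESeq2, 1061 with no filter, 393 thinned and 137 to 610 with a library left out, and without the block 535. For the graft they were 665 with DESeq2, 910 thinned and 1393 to 2243 with a control left out. Without mesothelial-list cells, 8 of the 47 genes called higher against PI16-positive cells and still tested took the opposite sign, as did 3 of 334 against smooth muscle gene-positive cells. Among named genes, ALDH1A2 against PI16-positive cells went to -0.14 without cells holding other-type markers and -0.69 without mesothelial-list cells, where POSTN went to -0.64. Against smooth muscle gene-positive cells HMGB2 went to 0.083 without other-type-marker cells and POSTN to -1.98 without mesothelial-list cells. Thinning keeps all cells but lowers the genes tested, to 4217 of 9343 against PI16-positive cells, and leaving out a library lowers the libraries; the cause of the other moves was not tested. Named genes were followed over all settings in the comparisons with PI16-positive cells, smooth muscle gene-positive cells and the graft, in that order. Of their values, 858, 820 and 605 kept their side of the threshold, which includes uncalled genes whatever their direction. A further 102, 95 and 29 values lost the call, and 69, 30 and 58 gained it. The 58 cells of control replicate 1 and the 68 of the graft limit what low genes can show.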

Other observations

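Some further regulatory and signalling genes differed in level between PI16-negative fibroblasts and non-fibroblast cells. RGCC, a cell cycle regulator, stood at 174, 201 and 244 CPM in the PI16-negative cells of replicates 1, 2 and 3 and at 737, 758 and 728 CPM in non-fibroblast cells. TGFB1, transforming growth factor beta 1, stood at 62.3, 85.0 and 49.0 against 244, 303 and 269 CPM, while TGFB3, of the same family, was higher in the fibroblasts at 59.0, 143 and 181 against 3.64, 3.51 and 4.54 CPM. CXCL8, a chemokine for neutrophils, stood at 0, 15.6 and 95.7 against 319.9, 511 and 558 CPM. These 4 genes were chosen after their values were seen, and the contrast with non-fibroblast cells carries no test.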
